A study of Mus musculus with 4 samples.

Results

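Protocadherins are a large family of cadherin adhesion proteins, and 39 of their genes were measured here. Every target of the array whose annotated gene name begins with Pcdh was taken as a member, which gave 69 of 44170 targets and 39 of 24171 genes. A target is 1 transcript of the array's annotation, read by 3 probes. The RNA was labelled as coming from Neuro2a (N2a), a mouse neuroblastoma line, and each cell sample had received scramble siRNA (2 arrays) or siRNA against Men1 (2 arrays). Men1 encodes menin, a scaffold protein of histone methyltransferase complexes. No dose or time of transfection is stated, nor whether the replicates of a group were separate cultures. The p-values therefore describe the spread between these arrays only, and that spread may be technical.

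Protocadherins span the membrane and bind a like molecule on the neighbouring cell. The clustered genes lie in 3 adjoining arrays, alpha, beta and gamma. Each alpha or gamma variable exon is spliced to constant exons that encode a common cytoplasmic tail, whereas each beta gene is a single coding exon without that tail. Neurons use a limited set of these promoters, and the combination gives a cell an identity by which its own branches avoid each other. The non-clustered genes are scattered over the genome. Their delta-1 and delta-2 groups differ in the motifs of their cytoplasmic tails and are known for roles in cell sorting, axon outgrowth and synapses.

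The array named 6 alpha genes (8 targets), 16 beta genes (16 targets) and 5 gamma genes (5 targets). RefSeq lists 14, 22 and 22 genes with these name stems, and the others were not analysed here. The non-clustered members were 4 delta-1 genes (12 targets), 5 delta-2 genes (14 targets) and 3 further genes, Pcdh12, Pcdh15 and Pcdh21 (14 targets). All clustered targets were placed on chromosome 18 of build MM9 except that of Pcdhb11, which the annotation places on chromosome 15.

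The targeted gene, Men1, stood at 6985 and 6222 on the scramble arrays and at 2764 and 4109 on the Men1 siRNA arrays at its brighter target. Its log2 difference, Men1 siRNA minus scramble, was −0.97 ± 0.35 (SE, n = 2 per group), with an adjusted p of 0.314 in limma, and its second target gave −0.19 ± 0.33. Array medians lay between 145.9 and 151.2, and a value under 100 is called dim here. Markers of other cells were present. All 10 measured forebrain neuron markers reached 100 on every array. The summed intensity of 10 epithelial markers was 18889 to 27945 in the scramble group and 1314 to 2221 in the Men1 siRNA group. For 12 fibroblast markers the sums were 47014 to 49310 and 14498 to 16205, and for 11 endothelial markers 8267 to 12080 and 2371 to 2466. Sums for the 10 forebrain markers were 13618 to 21553 and 25533 to 27605, and for 6 red cell markers 24045 to 46159 and 55488 to 63536. The part of these transcripts in the protocadherin values was not tested.

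Most protocadherin genes read higher on the Men1 siRNA arrays, but none passed the test. Of 39 genes, 34 had a positive log2 difference and 5 a negative one, and the median was 0.57. Over all genes of the array 54.5% were positive and the median was 0.06. In limma 0 of 39 genes passed an adjusted p of 0.05, where 0.389% of all genes did (0.0372% higher and 0.352% lower). Changes of the members' size could hardly pass in this fit. The endothelial marker Kdr, at −2.01 ± 0.30, shared the smallest SE of all genes and had an adjusted p of 0.0846. The members ran only from −1.95 to 1.76, so 0 of 39 does not show that they were unchanged. An unadjusted p under 0.05 was reached by 10 of the 39, where 14.2% of all genes reached it. Of these, 8 were higher and 2 lower, against 6.47% and 7.74% of all genes. Both Men1 siRNA arrays lay above both scramble arrays for 22 of the 39 genes, where 25.8% of all genes did, and below them for 3, where 21.7% did.

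Counted by target, 0 of 69 passed in limma, where 0.340% of all targets did (0.0272% higher and 0.312% lower). At an unadjusted p under 0.05 there were 12, where 13.6% of all targets reached it. Of these 10 were higher and 2 lower, against 6.16% and 7.41% of all targets. The groups stood apart with Men1 siRNA higher at 34 targets and lower at 5, against 25.3% and 21.3% of all targets, and 56 of 69 were positive against 54.2%. With a trended prior, which lets the assumed spread vary with brightness, 2 genes (Pcdhb5 and Pcdhga9) and 2 targets passed, where 2.94% of all genes and 2.42% of all targets did. Adding a pseudocount, filtering dim values or using the authors' value table gave 0 genes and 0 targets. The shares of all genes and of all targets that passed were then 1.04% and 0.876%, 4.44% and 3.70%, and 3.29% and 2.61%.

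**Figure D1:**
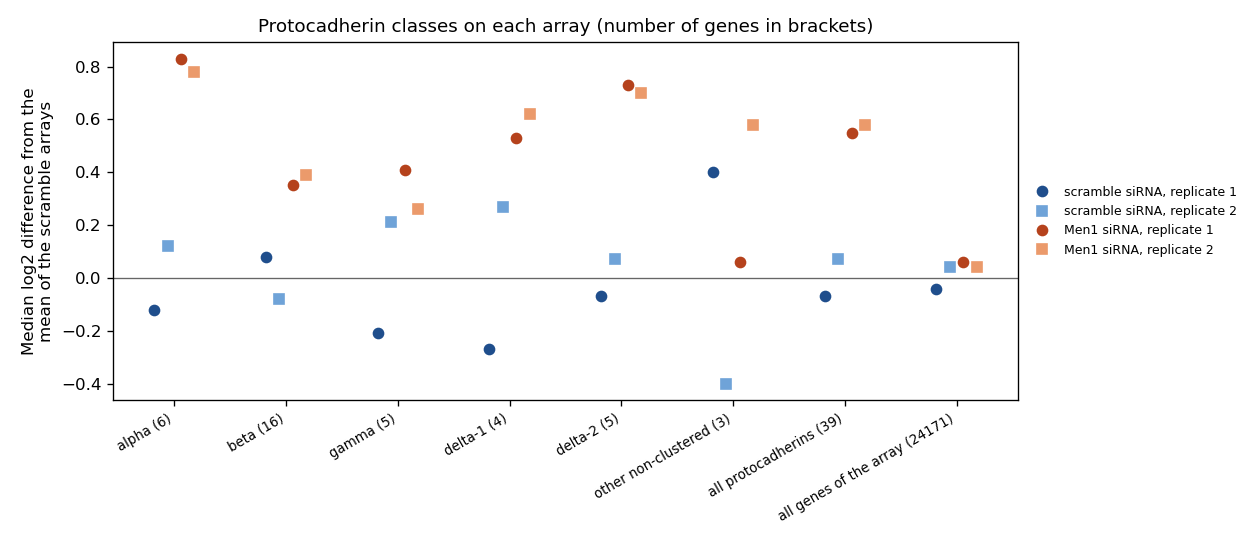
Median log2 difference of each protocadherin class from the mean of the 2 scramble arrays (vertical axis) on each of the 4 arrays, with the number of genes in brackets and all genes of the array at the right. For all 39 protocadherins the medians were 0.55 and 0.58 on the Men1 siRNA arrays and −0.07 and 0.07 on the scramble arrays, whereas the 4 medians of all genes lay between −0.04 and 0.06.

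Relative to the scramble mean, the median of the 39 genes was 0.55 on Men1 siRNA replicate 1 and 0.58 on replicate 2, so both arrays of the group carried it. Replicate numbers here are those of the array files; the value table has the scramble columns exchanged at 20617 of 20620 targets, so which scramble array is replicate 1 is uncertain. The scramble arrays differed by 0.14 in the median. With each array left out in turn the family's median lay between 0.50 and 0.58 and between 29 and 33 genes were positive. By class the medians were 0.84 for alpha, 0.38 for beta, 0.21 for gamma, 0.57 for delta-1, 0.70 for delta-2 and 0.57 for the 3 further genes. The gamma median was 0.76 without scramble replicate 2 and 0.16 without scramble replicate 1. For the 3 further genes it was −0.06 without scramble replicate 1, −0.09 without scramble replicate 2 and 0.06 without Men1 siRNA replicate 2. On the same arrays the 10 forebrain neuron markers had a median of 0.66 and were all positive. In limma 0 of them passed and 2 had an unadjusted p under 0.05, where 0.389% and 14.2% of all genes did. Over all genes 54.5% were positive. The 9 measured neuroblastoma and sympathoadrenal markers had a median of 0.46, with 7 positive and 2 negative. For the 10 glia markers it was 0.39, with 9 positive and 1 negative. The part of these transcripts in the protocadherin median was not tested.

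Other genes around the clusters were counted in the same way. The 78 targets within 1 Mb of the clusters that are not protocadherins had a median of −0.03, with 38 positive and 40 negative. Their differences ran from −2.23 to 5.25. In limma 1 of them passed, where 0.340% of all targets did (0.0272% higher and 0.312% lower). Its adjusted p of 0.0254 equals the lowest of all targets. An unadjusted p under 0.05 was reached by 11 of the 78, where 13.6% of all targets reached it. Of these 4 were higher and 7 lower, against 6.16% and 7.41% of all targets. The groups stood apart with Men1 siRNA higher at 18 and lower at 25, against 25.3% and 21.3% of all targets. Of the protocadherin targets, 8 of 8 alpha, 13 of 16 beta and 5 of 5 gamma were positive.

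All 6 alpha genes had positive differences, and for 5 of them the groups stood apart, where 54.5% of all genes were positive and 25.8% stood apart as higher. Pcdha6 stood at 7220 and 8932 on the scramble arrays and at 14037 and 14493 on the Men1 siRNA arrays, a difference of 0.83 ± 0.32 (SE, n = 2 per group; adjusted p = 0.331, limma). Pcdha4 stood at 1508 and 1438 and at 2806 and 2907 (0.96 ± 0.30, adjusted p = 0.273). In both genes the distance between the groups was wider than that between replicates. Pcdha11 had 1031 and 1164 on the scramble arrays against 2146 and 1795 (0.84 ± 0.32, adjusted p = 0.328), and Pcdha7 had 5224 and 5272 against 7905 and 7023 (0.51 ± 0.31, adjusted p = 0.509). Pcdha1 had 571.1 and 1081 against 1411 and 1644 (0.95 ± 0.41, adjusted p = 0.381), with scramble replicate 1 well below the other arrays. Pcdha2 was the exception, since its 241.0 and 368.1 on the scramble arrays overlapped its 280.6 and 374.9 on the Men1 siRNA arrays (0.12 ± 0.37, adjusted p = 0.906).

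The alpha targets may share probes. All 28 pairs of the 8 targets have overlapping annotated spans, and 6 of the 8 end within 2500 bases of the same position, at the end of the cluster. The Pcdha4 target used for the gene is annotated on to the end of the gamma cluster. The files give no probe positions, so which exons were read is not known. Between targets of different protocadherin genes, 0 pairs had values within 10% of each other on every array. The other Pcdha4 target, at 610.3 and 1468 and 1201 and 913.0, had overlapping groups (0.15 ± 0.50), and the other Pcdha11 target was dim on every array.

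The 16 beta genes were mixed in level and direction. Of them 13 were positive, 3 were negative, and 3 were dim on all arrays. On both Men1 siRNA arrays 8 stood higher and 1 lower, where 25.8% and 21.7% of all genes did. Some of those that stood higher were dim: of the 8 beta genes at 100 or more on both arrays of a group, 5 stood higher and 1 lower. Pcdhb16 stood at 79.8 and 100.2 on the scramble arrays, close to the dim level, and at 419.8 and 218.7 on the Men1 siRNA arrays. Its difference of 1.76 ± 0.42 was the highest of the 39 genes (SE, n = 2 per group; adjusted p = 0.185, limma). Pcdhb8 stood at 316.8 and 373.5 and 773.9 and 700.0 (1.10 ± 0.31, adjusted p = 0.239). Pcdhb5 stood at 1714 and 1486 and 3508 and 3012 (1.03 ± 0.32, adjusted p = 0.263). Each of these genes had groups that stood apart with close replicates, except that the Men1 siRNA arrays of Pcdhb16 were far from each other. Pcdhb3 stood at 263.8 and 198.0 and 431.8 and 508.3 (1.04 ± 0.33, adjusted p = 0.277), also without overlap.

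Pcdhb17 had the opposite direction, at 702.4 and 854.8 on the scramble arrays against 550.1 and 408.7 on the Men1 siRNA arrays (−0.71 ± 0.34, SE, n = 2 per group; adjusted p = 0.416, limma). Pcdhb22 was dim on both scramble arrays, at 83.8 and 68.5, and stood at 106.2 and 144.3 with Men1 siRNA, at least 1.24-fold higher (adjusted p = 0.419). The groups of 2 further genes that were never dim overlapped, Pcdhb20 (0.09 ± 0.35) and Pcdhb9 (0.01 ± 0.32). The remaining 8 beta genes were each dim on at least 2 arrays. Among them Pcdhb14 reached 100 only on scramble replicate 1, at 250.4. The spans of the 15 beta targets on chromosome 18 do not overlap in any of 105 pairs.

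**Figure D2:**
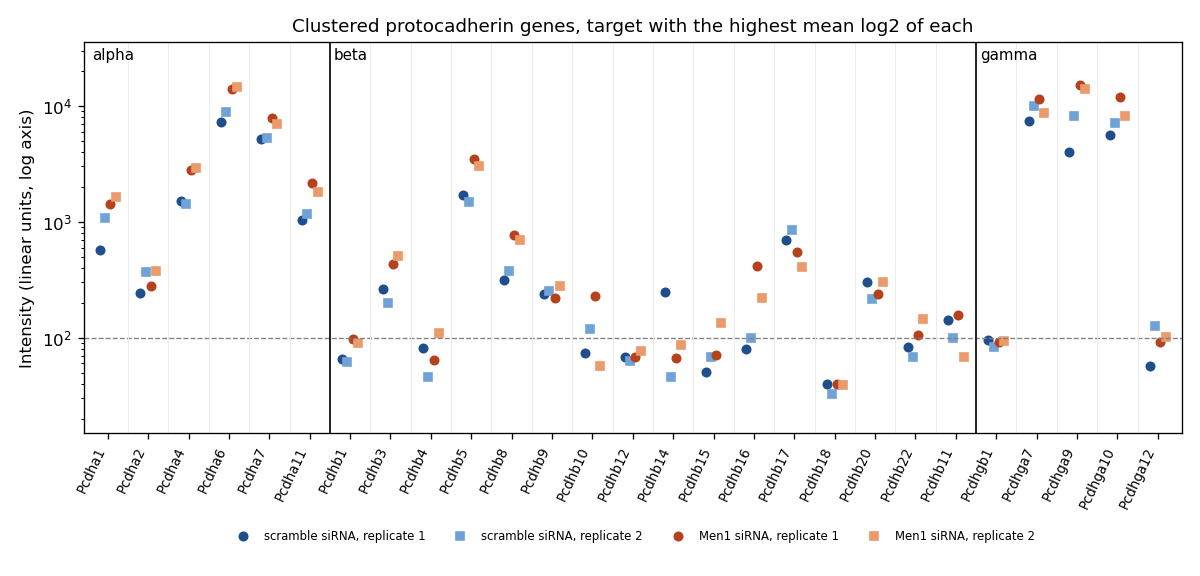
Intensity (log axis) of the target highest in mean log2 of each clustered protocadherin gene on the 4 arrays, ordered within a cluster by annotated start, with Pcdhb11, which is annotated elsewhere, last of the beta genes; the dashed line marks 100. Pcdha6 lies at 14037 and 14493 with Men1 siRNA above 7220 and 8932 with scramble, whereas Pcdhb17 lies at 550.1 and 408.7 below 702.4 and 854.8.

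All 5 gamma genes had positive differences, and for 2 of them the groups stood apart, a share read against 25.8% of all genes and resting on few genes. Pcdhga9 stood at 3965 and 8109 on the scramble arrays and at 15073 and 13850 on the Men1 siRNA arrays, a difference of 1.35 ± 0.43 (SE, n = 2 per group; adjusted p = 0.277, limma). Its scramble arrays were far apart, and the difference was 0.83 without scramble replicate 1 and 1.87 without scramble replicate 2. Pcdhga10 stood at 5612 and 7059 and 11926 and 8134 (0.65 ± 0.36, adjusted p = 0.474). Pcdhga7 stood at 7432 and 9910 and 11382 and 8598, with overlapping groups (0.21 ± 0.35, adjusted p = 0.822). Pcdhgb1 was dim on all arrays, and Pcdhga12, at 56.9 and 125.5 against 92.0 and 101.3, overlapped. All 10 pairs of gamma targets have overlapping spans and 4 of the 5 targets end at about the same position, so probes may be shared. The 3 bright gamma genes, Pcdhga7, Pcdhga9 and Pcdhga10, are among those 4, and their differences ran from 0.21 to 1.35.

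In each of the 5 delta-2 genes the groups stood apart, 4 with Men1 siRNA higher and Pcdh18 with it lower, where 25.8% and 21.7% of all genes did so. Because the class splits in this way, the promoters are shown, as RefSeq lists them on build GRCm38.p6, from 250 bases before to 50 after the start site, 5′ to 3′. Capitals mark matches, on either strand, to the GC box, spelled GGGCGG. They also mark the CCAAT box, spelled as its name. The third motif in capitals is the TATA box, spelled TATAAA, and the E-box CACGTG was searched as well. Of the 39 genes, 8 have an entry in that table.
Pcdh8 (chr14:79771263-79771562, minus strand): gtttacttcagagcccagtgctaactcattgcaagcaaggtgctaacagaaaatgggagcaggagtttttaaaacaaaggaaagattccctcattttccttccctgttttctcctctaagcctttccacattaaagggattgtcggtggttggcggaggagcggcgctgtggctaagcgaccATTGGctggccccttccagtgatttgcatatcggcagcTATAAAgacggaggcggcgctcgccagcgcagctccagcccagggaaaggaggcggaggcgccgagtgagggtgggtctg
Pcdh10 (chr3:45378148-45378447, plus strand): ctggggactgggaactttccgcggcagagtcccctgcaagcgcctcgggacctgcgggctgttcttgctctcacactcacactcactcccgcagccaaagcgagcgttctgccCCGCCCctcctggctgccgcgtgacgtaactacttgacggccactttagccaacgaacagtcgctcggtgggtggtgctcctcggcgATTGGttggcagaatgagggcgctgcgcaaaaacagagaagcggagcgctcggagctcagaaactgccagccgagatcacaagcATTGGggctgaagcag
Pcdh17 (chr14:84443313-84443612, plus strand): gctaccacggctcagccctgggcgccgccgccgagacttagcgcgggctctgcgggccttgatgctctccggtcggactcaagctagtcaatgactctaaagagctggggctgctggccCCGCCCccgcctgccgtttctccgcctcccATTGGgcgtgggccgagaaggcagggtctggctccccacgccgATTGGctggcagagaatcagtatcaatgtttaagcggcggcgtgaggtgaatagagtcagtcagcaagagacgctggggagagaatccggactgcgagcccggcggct
Pcdh19 (chrX:133688944-133689243, minus strand): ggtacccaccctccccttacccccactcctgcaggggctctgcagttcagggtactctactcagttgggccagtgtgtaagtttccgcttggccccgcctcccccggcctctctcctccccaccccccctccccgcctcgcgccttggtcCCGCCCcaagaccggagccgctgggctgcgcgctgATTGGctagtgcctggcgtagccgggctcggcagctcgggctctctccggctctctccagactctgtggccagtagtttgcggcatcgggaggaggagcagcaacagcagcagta
Pcdh18 (chr3:49757267-49757566, minus strand): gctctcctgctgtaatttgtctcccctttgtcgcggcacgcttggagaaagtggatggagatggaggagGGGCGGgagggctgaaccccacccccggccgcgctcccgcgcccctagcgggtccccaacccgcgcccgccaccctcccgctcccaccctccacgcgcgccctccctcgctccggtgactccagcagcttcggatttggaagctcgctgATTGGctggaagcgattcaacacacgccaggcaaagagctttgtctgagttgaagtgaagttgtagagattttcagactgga
All 5 promoters hold a CCAAT box, where 37.4% of the 32851 promoters in the table do, and 4 of 5 hold a GC box, where 35.7% do. Pcdh8 is the 1 without a GC box and the 1 with a TATA box (13.6% of all promoters), and none of the 5 has the E-box (7.2%). Upstream of the start, the nearest CCAAT box began 68 bases away in Pcdh8, 50 in Pcdh10, 58 in Pcdh17, 65 in Pcdh19 and 32 in Pcdh18, so that of Pcdh18 was the closest. Pcdh10 has another 34 bases after the start. Of the 8 members with an entry 7 hold a CCAAT box, Pcdh9 and Pcdh15 included. GC content was 54.3% in Pcdh8 and 62.3% to 67.7% in the other 4, with Pcdh18 at 63.0%, against a median of 52.7%. These matches are descriptions of letters and show no binding.

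Pcdh8 (chr14:80166590-80171107 on MM9), also called arcadlin, is induced by synaptic activity. Its brighter target stood at 6126 and 5599 on the scramble arrays and at 8564 and 9491 on the Men1 siRNA arrays (0.62 ± 0.31, SE, n = 2 per group; adjusted p = 0.428, limma), and its other target gave 1.07 ± 0.50. Pcdh10 (chr3:45182319-45203520), known for axon growth in the forebrain, stood at 1885 and 1626 and 2896 and 2786 (0.70 ± 0.31, adjusted p = 0.388). In both genes the replicates lay close together and the groups stood apart. The other 3 Pcdh10 targets gave −0.08, 0.34 and 0.61, each with overlapping groups. The target at −0.08 was dim on every array and that at 0.61 on 3 arrays.

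Pcdh19 (chrX:130122148-130223381), which is mutated in an inherited epilepsy, stood at 1834 and 2964 on the scramble arrays against 3922 and 4557 on the Men1 siRNA arrays (0.86 ± 0.37, SE, n = 2 per group; adjusted p = 0.381, limma). At all 4 of its targets both Men1 siRNA arrays were above both scramble arrays, where 25.3% of all targets were, with differences from 0.30 to 1.75. The highest came from a target at 307.5 and 1033 against 1975 and 1808, where the scramble arrays were far apart. The annotated spans of these targets overlap, so probes may be shared. Pcdh17 (chr14:84845480-84934001), known from synapses of the basal ganglia, stood at 253.6 and 501.8 and 701.7 and 716.5 (0.99 ± 0.42, adjusted p = 0.372), and its other 2 targets were dim on every array. In both genes scramble replicate 1 was the lowest of the 4 arrays.

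Pcdh18 (chr3:49547535-49561203), whose product binds the adaptor Dab1, stood at 470.0 and 517.3 on the scramble arrays and at 174.9 and 218.5 on the Men1 siRNA arrays. Both Men1 siRNA arrays were thus below both scramble arrays, and the replicates were close. The difference was −1.33 ± 0.32 (SE, n = 2 per group; adjusted p = 0.184, limma), with the smallest p of the 39 genes. The gene has 1 target. Alongside it, 12 of 12 fibroblast and mesenchyme markers were negative, where 54.5% of all genes were positive. Their median was −1.80, with a range from −4.37 to −0.20. In limma 2 of them passed, where 0.352% of all genes passed as lower. The part of fibroblast transcripts in the Pcdh18 value was not tested.

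**Figure D3:**
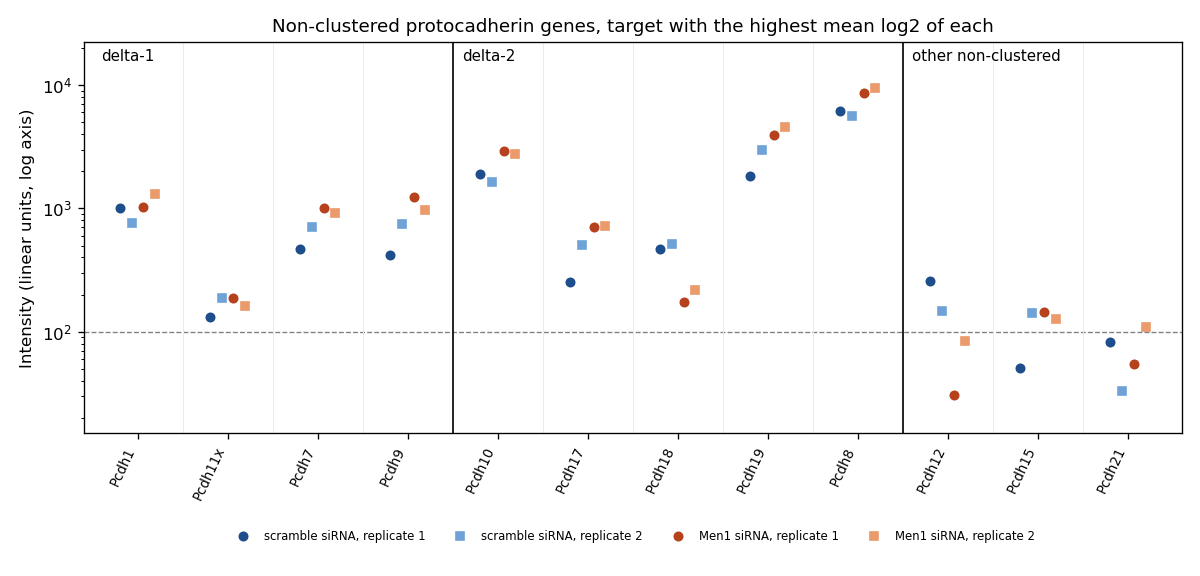
Intensity (log axis) of the target highest in mean log2 of each non-clustered protocadherin gene on the 4 arrays, by group; the dashed line marks 100. Pcdh18, at 174.9 and 218.5 with Men1 siRNA, and Pcdh12, at 30.4 and 84.0, lie below their scramble arrays, and the 7 genes that lie above theirs include Pcdh8 at 8564 and 9491.

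Of the 4 delta-1 genes, 3 stood higher on both Men1 siRNA arrays, where 25.8% of all genes did. Pcdh9 (chr14:93412919-94287580) stood at 420.6 and 745.3 on the scramble arrays against 1244 and 963.0 on the Men1 siRNA arrays (0.97 ± 0.41, SE, n = 2 per group; adjusted p = 0.368, limma). Pcdh7 (chr5:58109338-58520590), whose product binds a protein phosphatase, stood at 471.4 and 708.9 and 1015 and 918.1 (0.74 ± 0.35, adjusted p = 0.415). All 3 targets of each gene were positive, from 0.24 to 0.97 for Pcdh9 and from 0.58 to 0.80 for Pcdh7. The Pcdh9 target at 0.24 was dim on 3 arrays and had overlapping groups. A pair of Pcdh7 targets had values within 7.94% of each other on every array. It was the 1 such pair of 2346 at a limit of 10%, and these targets may share probes.

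Pcdh1, an adhesion gene of airway epithelium, had targets with opposite directions. The brighter, annotated to chr18:38349198-38357460, stood at 1016 and 759.7 on the scramble arrays against 1023 and 1307 on the Men1 siRNA arrays (0.40 ± 0.34, SE, n = 2 per group; adjusted p = 0.641, limma). The other, annotated to chr18:38356347-38369416, stood at 705.3 and 512.3 and 326.1 and 345.7 (−0.84 ± 0.35, adjusted p = 0.372 in the fit by target). The groups stood apart at both targets, though at the brighter one only narrowly, by 1016 on a scramble array against 1023. The mean of the targets gave −0.22. Epithelial markers were negative in 10 of 10 cases, where 54.5% of all genes were positive. Their median was −3.64, with a range from −5.26 to −1.57, and 5 passed, where 0.352% of all genes passed as lower. The part of epithelial transcripts in the Pcdh1 values was not tested.

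Pcdh11x, the X-linked member, had overlapping groups at the target highest in mean log2, with 132.4 and 187.4 on the scramble arrays against 186.7 and 161.9 on the Men1 siRNA arrays (0.14 ± 0.34, SE, n = 2 per group; adjusted p = 0.881, limma). Another of its 4 targets stood at 84.7 and 108.9 and 231.5 and 198.5, without overlap (1.16 ± 0.34, adjusted p = 0.262 in the fit by target).

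Pcdh12, a protocadherin of endothelial cells, stood at 257.7 and 147.4 on the scramble arrays and was dim on both Men1 siRNA arrays, at 30.4 and 84.0. It was at least 1.95-fold lower (fitted difference −1.95 ± 0.58, SE, n = 2 per group; adjusted p = 0.256, limma). Its other targets gave −0.31 and −0.02. The first stood at 107.9 and 111.1 on the scramble arrays against 72.7 and 107.1, and the second was dim on every array. Endothelial markers were negative in 11 of 11 cases, where 54.5% of all genes were positive. Their median was −2.01, with a range from −3.36 to −0.28, and 2 passed, where 0.352% of all genes passed as lower. Kdr, a growth factor receptor of endothelium, stood at 799.4 and 742.5 and 189.0 and 192.3. The part of endothelial transcripts in the Pcdh12 value was not tested, and in bulk RNA fewer cells of a type and less RNA per cell cannot be told apart.

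Pcdh15, a tip-link protein of hair cells, was near the dim level. Its target highest in mean log2 stood at 50.6 and 141.1 on the scramble arrays against 144.0 and 126.8 on the Men1 siRNA arrays, with overlap (0.68 ± 0.54, SE, n = 2 per group; adjusted p = 0.611, limma). Of its 10 targets 7 were dim on every array, and 7 were positive. Pcdh21, a photoreceptor cadherin now named Cdhr1, stood at 82.4 and 33.1 and 54.3 and 110.1, also with overlap (adjusted p = 0.695).

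**Figure D4:**
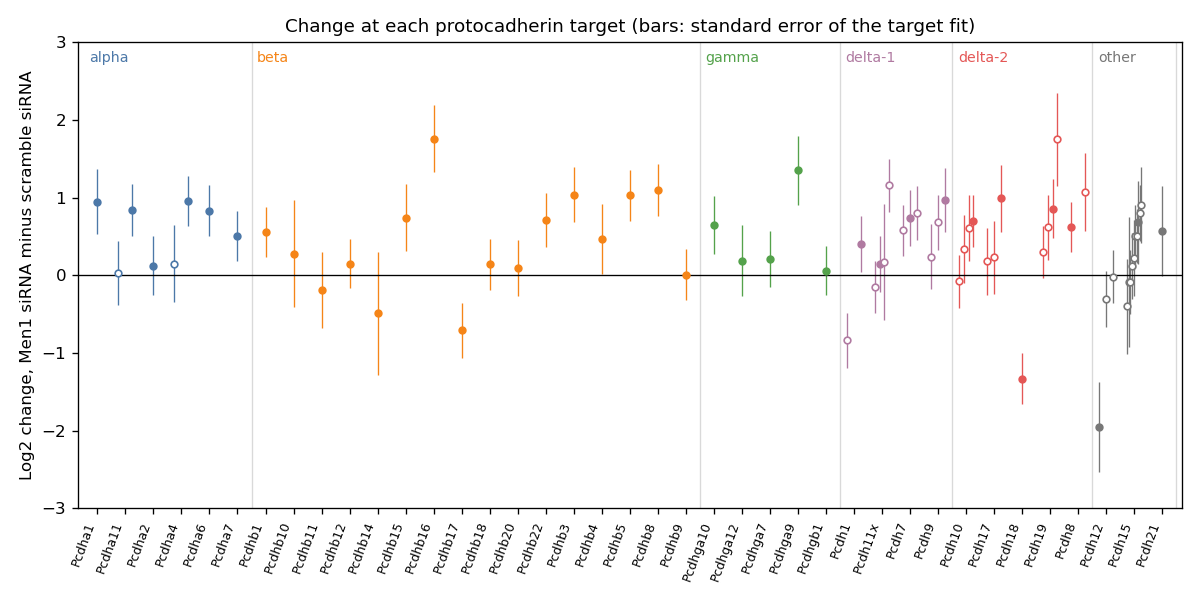
Log2 difference at each of the 69 protocadherin targets, Men1 siRNA minus scramble, with the standard error of the fit by target as bars; filled points are the targets that stood for a gene and open points its other targets. All 4 Pcdh19 targets lie above 0, from 0.30 to 1.75, whereas the Pcdh1 targets lie at 0.40 and −0.84.

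Of the 39 genes, 12 had more than 1 target. In 8 of these all targets had the same sign, and in Pcdh1, Pcdh10, Pcdh11x and Pcdh15 they did not. The 1 negative Pcdh10 target was dim on every array, as were some of the negative Pcdh15 targets, so these signs carry little weight. Among the clustered genes, 25 of 27 rested on 1 target. The mean of all targets in place of 1 gave 0.55 for Pcdha4, 0.44 for Pcdha11, 0.63 for Pcdh9, 0.39 for Pcdh10, 0.47 for Pcdh17 and −0.76 for Pcdh12. Scramble replicate 1 was the lowest array of several genes, and without it Pcdha1 had 0.49, Pcdh7 0.45, Pcdh9 0.55, Pcdh17 0.50 and Pcdh19 0.51. Without Men1 siRNA replicate 1, Pcdhga10 had 0.37 and Pcdh12 −1.21.

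Related genes were counted from 3 lists, against the 0.389% of all genes that passed and the 14.2% with an unadjusted p under 0.05. Of 20 measured regulators of the clusters (among them CTCF, cohesin and DNA methylation genes), 0 passed in limma and 1 had an unadjusted p under 0.05. Of these, 9 were positive, and the median was −0.13. The 1 gene was Rest, a repressor of neuronal genes, at 1547 and 902.8 on the scramble arrays against 508.7 and 156.9 on the Men1 siRNA arrays (−2.06 ± 0.63, SE, n = 2 per group; adjusted p = 0.263). Dnmt3a, a DNA methyltransferase gene, stood at 2086 and 2410 and 3837 and 3671 (0.74 ± 0.31), but the mean of its targets gave −0.04. The cohesin genes Stag1 and Smc3 had −0.79 ± 0.34 and −0.60 ± 0.30, and the mean of the Stag1 targets gave −0.14. Without Men1 siRNA replicate 2 Rest had −1.22.

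Of 26 measured processing and signalling partners 0 passed in limma and 1 had an unadjusted p under 0.05. There were 14 positive genes, and the median was 0.14. The 1 gene was Ret, a receptor tyrosine kinase gene, which was dim at 80.2 and 54.4 on the scramble arrays and stood at 212.0 and 243.2 with Men1 siRNA, at least 2.27-fold higher (adjusted p = 0.132). The gamma-secretase gene Ncstn had −0.71 ± 0.31, the WAVE complex gene Cyfip1 −0.67 ± 0.30 and the kinase gene Ptk2b −0.94 ± 0.50. Ptk2b had −0.28 without scramble replicate 1 and −1.61 without scramble replicate 2, and the mean of targets gave −0.41 for Ptk2b and −0.32 for Cyfip1.

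Of 9 measured large cadherins (Fat, Dachsous and Celsr genes and Cdh23), 0 passed in limma and 0 had an unadjusted p under 0.05. Of these 5 were positive, and the median was 0.03. Celsr3 had 0.76 ± 0.33 and Dchs1 0.69 ± 0.36, whereas Celsr1 had −1.78 ± 0.77. Without scramble replicate 1 Celsr1 had −0.69 and Dchs1 0.35, and without scramble replicate 2 Celsr1 had −2.87. Fat1 had −0.41 ± 0.32, and 0.15 as the mean of its targets.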

How the data were processed

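Intensities of 4 single-colour arrays, 2 per group, were used as the authors deposited them. The deposited intensity is linear, 1 value per target, named as an RMA (robust multi-array average) summary, with targets annotated on MM9. Per the labels' protocols the cRNA was made by a NimbleGen procedure; how background was corrected is not given in the sources used here. Of all targets, the authors' value table contains the 20620 targets at 100 or more on all 4 arrays, and no others, which is where the dim level comes from; 34 of the 69 member targets are in it.

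Intensities were log2-transformed without a pseudocount and not normalized again. The target highest in mean log2 represented its gene. Differences were fitted over all 24171 genes, and separately over all 44170 targets, with limma 3.58.1 (lmFit, then eBayes; R 4.3.3). Group was the only term, tests were two-sided, and p-values were adjusted by Benjamini-Hochberg over the whole table at 0.05. A gene dim on both arrays of a group has a bound: the bright mean against, per array, 100 or its own value if that is higher. The bound makes no allowance for the spread between arrays. With 2 arrays against 2, exact permutation p-values start at 0.33. The code was tested on simulated data. The values of 1 further marker gene are not reported here. The members, classes, lists and tests were chosen with earlier results of these data known. Named are all non-clustered genes, up to 6 per cluster with the smallest p among those at 100 on both arrays of a group, and up to 4 per further list. Pcdhb20, Pcdhb9, Pcdhb14, Pcdhga12 and Pcdhgb1 were in part named after their values were seen, as was Kdr. The settings that were varied were a replicate block, leaving out an array, normalization (median, quantile, cyclic loess), a filter and a floor at 100, a pseudocount of 32, the prior (trended, robust), the value table, the mean of targets and a threshold of 0.01. Deviations of same-numbered arrays from their group means correlated at r = −0.167 over all targets, so a crossed block was added after seeing the data. Files were read and plots drawn in Python 3.11.15 with matplotlib 3.10.9, pandas 2.3.3 and numpy 2.4.6.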

Additional observations from a re-analysis of the deposited data

Results flagged for a closer look

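A target without a gene symbol, described in the annotation as similar to protocadherin beta 5 (BC066179, chr18:37480092-37483569 on MM9), lay outside the members and was above its scramble level on both Men1 siRNA arrays. It stood at 73.7 and 109.2 on the scramble arrays and at 160.9 and 221.5 on the Men1 siRNA arrays, a difference of 1.07 ± 0.38 (SE, n = 2 per group) that did not pass in limma (adjusted p = 0.322 over all targets). Its span covers that of the Pcdhb5 target, which had 1.03, so they may share probes.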

How the results depend on the processing

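Having 2 arrays per group limits the precision, and in the main fit changes as small as those of the members could hardly pass. The count of protocadherin genes past the threshold was 0 in each setting run except the trended prior, where it was 2: Pcdhb5 (1.03, adjusted p = 0.0420) and Pcdhga9 (1.35, adjusted p = 0.0433). By target it was 2 there too, with adjusted p = 0.0490 and 0.0438. With the replicate block 0 genes and 0 targets passed. An unadjusted p under 0.05 was then reached by 6 genes, where 11.1% of all genes reached it. With the crossed block 0 passed, and 11 genes reached it, where 16.5% of all genes did. The image names in the files number the Men1 siRNA arrays otherwise than the labels, the value table exchanges the scramble arrays (20617 of 20620 targets), and the labels do not say that numbers pair arrays. With an array left out the counts were 0 to 0, the lone array of a group being assumed to vary like the others. Of the partners 1 gene, Ret (1.78, adjusted p = 0.0386), passed with the filter on dim values, where 4.44% of all genes did.

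With an array left out, class medians ran from 0.59 to 0.93 for alpha, 0.31 to 0.57 for beta, 0.16 to 0.76 for gamma, 0.50 to 0.71 for delta-1, 0.51 to 0.73 for delta-2 and −0.09 to 0.58 for the 3 further genes. The mean of targets gave 0.53 for alpha, 0.47 for delta-2, 0.32 for the further genes and 0.47 for the family. The filter gave 0.87 for beta, 0.65 for gamma, −0.64 for the further genes and 0.70 for the family. The floor gave 0.08 for beta, 0.07 for the further genes and 0.31 for the family, and the pseudocount 0.48 for the family. The value table gave 0.56 for beta, 0.65 for gamma and 0.72 for the family. The filter, the floor and the value table drop or level dim genes by construction, and the pseudocount shrinks their differences. The mean of targets takes in targets dim on every array, such as the other targets of Pcdha11 and Pcdh17. Beyond this, the cause of the shifts was not tested. The sign turned as the mean of targets for Pcdh1 (−0.22), Dnmt3a (−0.04) and Fat1 (0.15). With an array left out, values with turned sign occurred within −0.11 to 0.39 for Pcdh11x, −0.06 to 1.42 for Pcdh15, −0.09 to 1.22 for Pcdh21 and −0.18 to 0.43 for Pcdha2. The median of all genes was 0.06, or 0.01 with cyclic loess and 0.08 with median scaling.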

Other observations

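A target annotated as a protocadherin gamma C-II precursor RNA, without a gene symbol, stood at 213.5 and 48.7 on the scramble arrays against 90.1 and 43.5 on the Men1 siRNA arrays, with overlapping groups. An unnamed target in the region of Pcdh15 lay between 60.0 and 102.6 over the 4 arrays. Mucin-like protocadherin (Cdhr5) was dim on every array, at 48.2 to 76.3.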
